A study of Mus musculus with 28 samples.

Results

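The comparison set alveolar epithelial type 2 cells (AEC2) from the lungs of mice given papain together with FK506 against AEC2 from untreated mice. It used 4 of the 28 samples of the series, 2 in each group, chosen by the cell type and treatment in the labels. All mice were wild-type C57BL/6 animals, 8 weeks old. The treated mice received 0.2 mg of FK506 a day by the intraperitoneal route, in methyl cellulose, for 3 days, went 2 days without it, and then received it for another 3 days while 50 µg of papain a day in 40 µL of buffer was placed in the nose. The untreated group received neither agent, so the contrast holds the effects of the allergen and of the drug together, and no AEC2 sample was given FK506 alone. A further 2 AEC2 libraries from mice given papain without the drug entered the fit to help estimate the spread, and their values are printed beside the others. RNA (10 ng) from cells sorted by flow cytometry was sequenced with a 3' end protocol. The labels do not say whether the replicates of a group came from separate mice or from pools, so the p-values measure only the spread between these samples.

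AEC2 are the cuboidal cells of the alveolus that make and recycle pulmonary surfactant and that renew both themselves and the flat type 1 cells (AEC1) of the gas exchange surface. They also take part in airway allergy, because damaged epithelium releases IL-33, an alarmin that acts on group 2 innate lymphoid cells, and because epithelial cells respond through STAT6 to the IL-4 and IL-13 that these lymphocytes secrete. Papain is a plant cysteine protease that damages the epithelium and provokes such a type 2 response. FK506 (tacrolimus) binds the immunophilin FKBP12, encoded by Fkbp1a, and the complex inhibits the phosphatase calcineurin, which otherwise dephosphorylates NFAT transcription factors.

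Values are given as deposited, in CPM, in which every library's reads are scaled to the same total. Recovered library totals were 1206886 to 1336079 reads in the 5 AEC2 libraries whose values keep the steps of single reads. The values of untreated replicate 1 were deposited as whole numbers, and its depth is unknown. Between 4441 and 6507 genes had a value above 0 per library, and many genes well above 10 CPM in one library were listed at 0 in its replicate: 1080 genes at 10 CPM or more in papain + FK506 replicate 1 were at 0 in replicate 2, and 1489 the other way round. Even Gapdh was listed at 0 in all 4 compared libraries, so no more than the listing itself is read from a 0. The libraries labelled untreated 2 and papain 2 were near copies of each other. Their log2 values correlated across genes at 0.985, against 0.373 to 0.529 for every other pair of AEC2 libraries, and they shared 6380 detected genes, which is 98.0% of those in untreated 2 and 99.6% of those in papain 2. The median chi-square per gene between their recovered reads was 0.093, below the 0.455 that independent sampling of 1 library gives, whereas it was 36.6 between the papain + FK506 replicates. The mean was higher, at 2.51, against 49.29 between the papain + FK506 replicates. Some genes thus differed clearly, such as Rn18s, at 34899 CPM in untreated 2 and 23531 CPM in papain 2. Which of the 2 labels holds for them is not known from the files, and the count of calls and the differences of single genes within AEC2 are therefore also given without untreated 2.

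**Figure D1:**
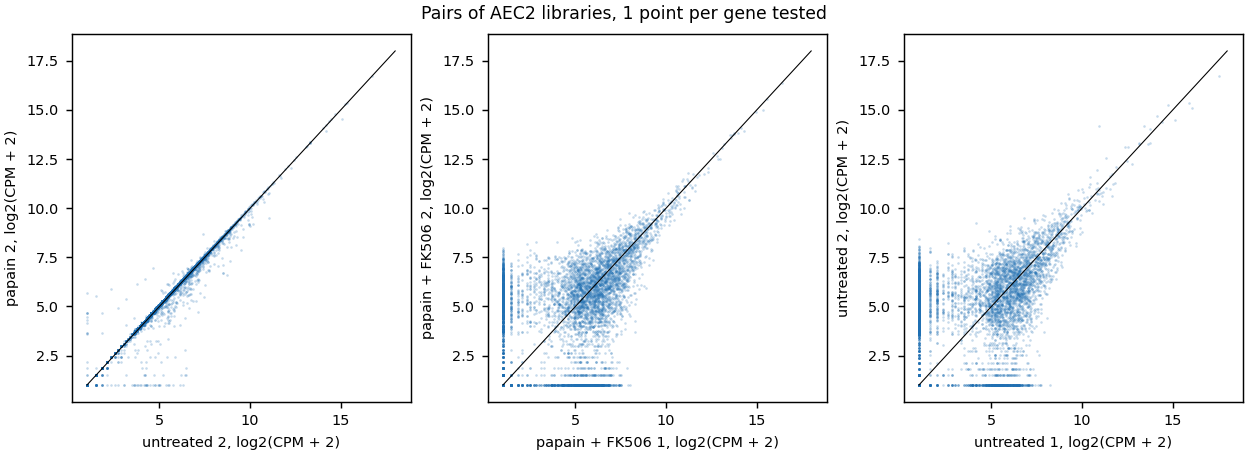
Each point is 1 of the 6719 genes tested, with log2(CPM + 2) in a pair of AEC2 libraries on the axes and the line of equality. Untreated 2 and papain 2 (left) lie along the line at a correlation of 0.985, while the papain + FK506 replicates (middle, 0.529) and the untreated replicates (right, 0.389) scatter widely and have many genes listed at 0 in 1 library.

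The promoters of 3 genes on which the account below turns are shown so that their sequence can be read beside their values: Retnla, whose secreted product IL-4 and IL-13 induce, Lcn2, an iron-sequestering antimicrobial protein, and Il33. Each run covers 250 bases before to 50 bases after a start site annotated by RefSeq on GRCm38.p6, written 5′ to 3′ on the strand of the gene. Capitals mark matches on either strand to TTCNNNNGAA, the palindrome bound by STAT6, and to GGAAAA, the core of NFAT sites. The Retnla promoter lies on the plus strand at chr16:48842359-48842658, that of Lcn2 on the minus strand at chr2:32387690-32387989, and that of Il33, the more upstream of its annotated starts, on the plus strand at chr19:29924863-29925162.
Retnla: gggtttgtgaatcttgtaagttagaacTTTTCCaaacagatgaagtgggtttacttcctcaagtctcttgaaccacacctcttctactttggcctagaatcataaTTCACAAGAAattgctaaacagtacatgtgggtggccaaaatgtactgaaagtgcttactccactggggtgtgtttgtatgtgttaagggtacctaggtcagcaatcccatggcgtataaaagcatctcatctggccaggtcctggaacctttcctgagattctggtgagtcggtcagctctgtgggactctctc
Lcn2: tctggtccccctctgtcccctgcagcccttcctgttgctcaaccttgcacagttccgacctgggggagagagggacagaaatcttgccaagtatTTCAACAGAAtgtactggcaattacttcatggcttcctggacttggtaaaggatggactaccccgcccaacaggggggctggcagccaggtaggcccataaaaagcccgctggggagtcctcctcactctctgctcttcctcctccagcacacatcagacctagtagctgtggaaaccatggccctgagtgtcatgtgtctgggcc
Il33: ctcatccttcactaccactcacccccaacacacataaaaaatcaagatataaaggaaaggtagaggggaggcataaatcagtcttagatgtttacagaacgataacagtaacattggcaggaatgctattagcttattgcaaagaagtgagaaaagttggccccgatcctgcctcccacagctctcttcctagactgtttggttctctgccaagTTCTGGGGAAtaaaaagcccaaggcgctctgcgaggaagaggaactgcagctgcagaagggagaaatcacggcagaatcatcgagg
Retnla held 1 match to each motif, and Lcn2 and the Il33 start shown held 1 match each to the STAT6 palindrome alone. The more downstream start of Il33 held 0 matches to either motif. The promoters of Slpi, Tpp1, Pim3, Fzd5 and Lrpprc, genes described below, also held 0 matches to either. That of Pex14 held 1 match to the NFAT core and 0 to the STAT6 palindrome. Of 32851 promoters of the same length in the RefSeq table, 7.0% held the STAT6 palindrome and 23.4% the NFAT core. The matches describe letters in a window, not bound sites.

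No gene passed the test. Of 6719 genes that reached 10 CPM in at least 2 AEC2 libraries, limma called 0 higher (0%) and 0 lower (0%) at an adjusted p of 0.05. The smallest adjusted p was 0.904, and 303 genes had an unadjusted p under 0.05, where 5% of the genes tested is 336. With only the 4 compared libraries in the limma fit, 0 genes passed (smallest adjusted p 0.473). In that fit 525 of 5554 genes had an unadjusted p under 0.05, where 5% is 278. The count also stood at 0 without untreated 2 (5991 genes tested, 354 under an unadjusted 0.05) and with edgeR on recovered reads (69 under 0.05), while DESeq2 on those reads called 3 higher and 16 lower (486 under 0.05). The edgeR and DESeq2 fits left out untreated 1, whose values are whole numbers. Untreated 2, whose label is in doubt, was their only untreated library. With 2 libraries against 2, an exact permutation test of a single gene cannot go below a two-sided p of 0.333. As a description, both papain + FK506 libraries lay above both untreated ones for 1271 genes (18.9%) and below both for 739 genes (11%) on the deposited scale, and these shares are the background against which the counts of the gene groups below are read. After TMM scaling (a trimmed mean of log ratios between libraries) they were 16.3% and 12.9%. Without untreated 2, when 1 untreated library is left to lie above or below, they were 36.5% and 27.9% after TMM scaling, and without untreated 1 they were 24.7% and 43.6%. Counts of the groups are on the deposited scale unless the TMM scale is named. Differences are given as log2(CPM divided by the TMM factor, plus 2), papain + FK506 minus untreated, with the standard error. The median difference over all genes tested was -0.09, and it was 0.07 without TMM factors, 0.48 without untreated 2 and -0.73 without untreated 1, so that small differences change sign with the library left out.

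Retnla had the widest separation between the groups among the genes of the IL-4 and IL-13 response. Its untreated values were 42 and 210.1 CPM and its papain + FK506 values 3124 and 1897 CPM, a mean 19.9 times higher. Both treated libraries thus lay far above both untreated ones. The papain libraries stood at 7876 and 223 CPM, the latter being the near copy of untreated 2. The difference was 4.46 ± 1.27 (95% interval 1.65 to 7.28, limma adjusted p = 0.904). It was 5.59 without untreated 2 and 3.36 without untreated 1. With only 1 treated library in the fit it was 4.12 without papain + FK506 replicate 1 and 4.86 without replicate 2. Retnla lies at 48842609 to 48844461 on chromosome 16 (GRCm38.p6).

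The other genes of that response were mostly unlisted in AEC2. Of 27 members, 20 were at 0 in all 6 libraries, 5 were tested, and 2 of those 5 had both treated libraries above both untreated ones. Il4ra, which encodes the receptor chain shared by IL-4 and IL-13, was at 0 and 5.4 CPM untreated and at 32.9 and 117 CPM with papain + FK506. Stat6, the transcription factor downstream, was at 0 and 39.2 CPM against 67.4 and 31.5 CPM, and these groups overlapped. Chil3, a chitinase-like protein of type 2 inflammation, was listed at 59.1 CPM in 1 treated library and at 0 in the other 3 compared, and the goblet cell mucin Muc5ac was at 0 in every one.

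Of 22 genes of secreted defence and acute phase proteins, 10 were tested and none passed. Both treated libraries were above both untreated ones for 5 of the 10 and below for 1, Bpifa1. On the TMM scale the counts were 4 above and 1 below, and without untreated 1 they were 4 above and 5 below. The median difference over the 10 was 0.88, but it was 1.39 without untreated 2 and -0.07 without untreated 1. Lcn2 was at 329 and 485 CPM untreated and at 1507 and 2215 CPM treated, a difference of 1.99 ± 0.58 (limma adjusted p = 0.904). It was 1.74 without untreated 1 and 2.26 without untreated 2, and papain alone gave 1935 and 502 CPM. The groups did not overlap.

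Slpi, an inhibitor of neutrophil elastase, was at 93 and 35.4 CPM untreated and at 333 and 563 CPM treated, a difference of 2.68 ± 1.12 that was 1.99 without untreated 2 and 3.38 without untreated 1. Haptoglobin (Hp), which binds free haemoglobin, had 630 and 501 CPM against 1394 and 1235 CPM. Lrg1, a leucine-rich acute phase glycoprotein, stood at 1213 and 1508 CPM against 2811 and 3380 CPM. Complement component 5 (Hc) stood at 630 and 1411 CPM against 1552 and 2118 CPM. In each of these 4 genes the lower treated library was above the higher untreated one on the deposited scale. For Hc the margin was small, and its groups overlapped after TMM scaling. Saa3, an acute phase apolipoprotein, was too low to be tested, at 0 in both untreated libraries and at 6.7 and 37.3 CPM in the treated ones. Slpi, Hp, Lrg1 and Hc were chosen from the list after their values were seen.

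**Figure D2:**
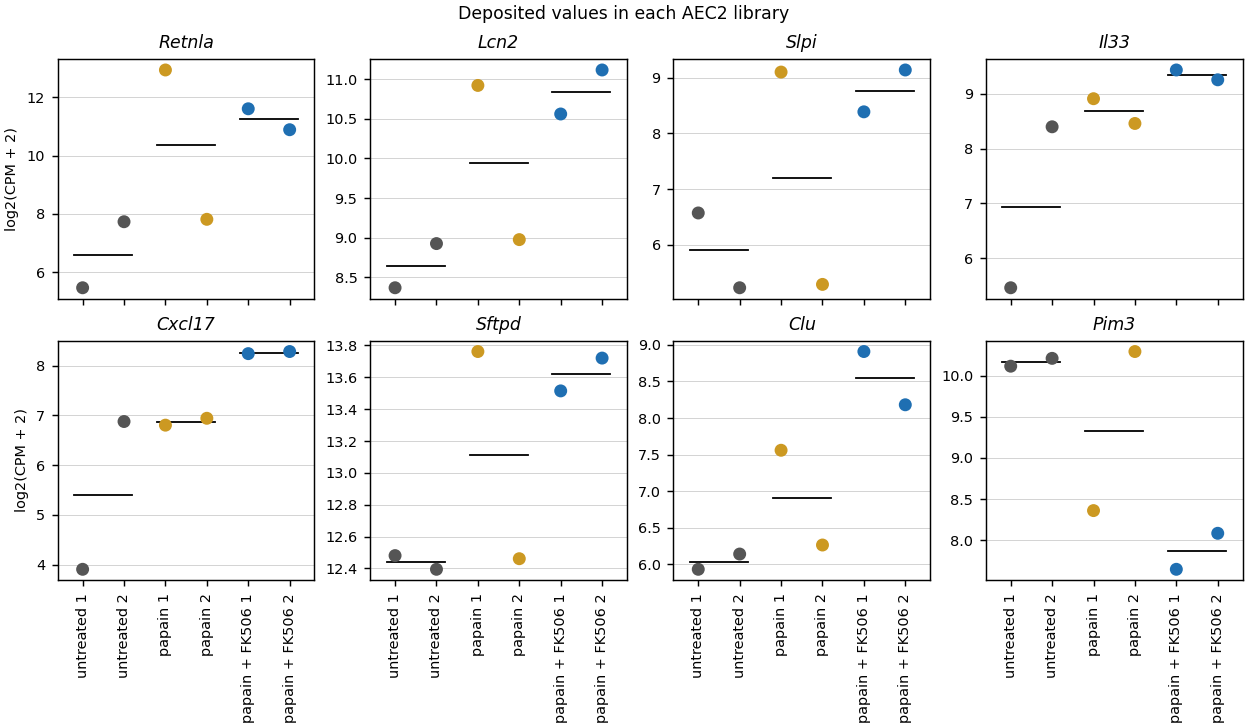
Each panel plots log2(CPM + 2) of 1 gene in the 6 AEC2 libraries, with a bar at the mean of each group of 2 and an axis that does not start at 0. In 7 panels both papain + FK506 points lie above both untreated points, and for Pim3 they lie below; the points of untreated 2 and papain 2 stand at nearly the same height throughout.

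Among alarmins and chemokines, 10 of 32 members were tested, and 4 had both treated libraries above both untreated ones while 0 had both below. Of these 4, Cx3cl1 passed the filter through the treated libraries alone. Il33 was at 42 and 336 CPM untreated and at 691 and 609.8 CPM treated. The papain libraries stood at 479.6 and 350.0 CPM, the latter being the near copy of untreated 2. Its difference was 2.23 ± 0.84 (95% interval 0.36 to 4.09, limma adjusted p = 0.904). It shrank to 0.78 without untreated 1 and grew to 3.68 without untreated 2, so its size rested largely on the first untreated library. Cxcl17, a mucosal chemokine, was at 13 and 115 CPM untreated and at 300.1 and 309 CPM treated, a difference of 2.68 ± 1.05 that was 4.16 without untreated 2 and 1.22 without untreated 1.

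The epithelial cytokine genes Tslp, Il25 and Csf2 and the chemokine genes Ccl20 and Cxcl5 were listed at 0 in all 4 compared libraries. Il6, chosen after its values were seen, was at 0 in both untreated libraries and at 44.9 and 20.7 CPM in the treated ones. Areg, an epidermal growth factor receptor ligand, overlapped between the groups, at 200 and 70.8 CPM against 67.4 and 105 CPM. Cxcl15, a chemokine made in quantity by AEC2, was at 8884 and 10065 CPM untreated and at 12630 and 13324 CPM treated, a difference of 0.26 ± 0.26 after scaling that was 0.34 without untreated 2 and 0.20 without untreated 1. In the NF-kB group, 3 of 15 tested members had both treated libraries above and 0 had both below, but on the TMM scale the counts were 3 and 3. Relb, one of those above, passed the filter through the treated libraries alone. Nfkbia, the inhibitor that NF-kB induces, overlapped at 1388 and 2378 CPM against 1571 and 1149 CPM.

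The sorted cells carried the AEC2 programme in every library. Of 30 identity genes, 28 were tested, 14 had both treated libraries above both untreated ones and 2 had both below. On the TMM scale the counts were 11 and 3. The median difference was 0.35, with 0.59 without untreated 2 and 0.04 without untreated 1. Sftpc, which encodes surfactant protein C and is the defining AEC2 transcript, was at 61276 and 42260 CPM untreated and at 40899 and 32887 CPM treated. Both treated libraries were below both untreated ones, but the nearest pair differed little, and the difference of -0.67 ± 0.25 did not pass (limma adjusted p = 0.904). It was -0.95 without untreated 2 and -0.37 without untreated 1.

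The surfactant collectin Sftpd went the other way. It was at 5714 and 5383 CPM untreated, at 11699.9 and 13495 CPM with papain + FK506 and at 13886 and 5638 CPM with papain alone. The treated mean was 2.27 times the untreated one, a difference of 0.98 ± 0.36 (limma adjusted p = 0.904) that was 0.93 without untreated 2 and 1.05 without untreated 1. The other collectin, Sftpa1, was at 27600 and 38675 CPM against 48089 and 48128 CPM, a difference of 0.36 ± 0.23 that was 0.59 without untreated 2 and 0.15 without untreated 1. Sftpb, which encodes a hydrophobic surfactant protein, overlapped at 11029 and 18287 CPM against 15817 and 14632 CPM, a difference of -0.10 ± 0.30 that was 0.26 without untreated 2 and -0.43 without untreated 1.

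Other AEC2 genes also separated on the deposited scale. Lpcat1, an acyltransferase of surfactant lipid synthesis, was at 1 and 50.8 CPM against 189 and 114 CPM, a difference of 3.41 ± 1.51 that was 5.52 without untreated 2 and 1.33 without untreated 1. The mucin gene Muc1 was at 181 and 326 CPM against 713 and 646 CPM, and Ctsh, a protease that processes surfactant proteins, at 752 and 496 CPM against 1463 and 1052 CPM. Chil1, a chitinase-like lectin, was at 2224 and 1554 CPM against 3297 and 3043 CPM. Lamp3, a protein of the lamellar body in which surfactant is stored, was at 617 and 1487 CPM against 1589 and 1743 CPM. After TMM scaling its groups overlapped, and its difference of 0.60 ± 0.48 was 1.22 without untreated 2 and -0.006 without untreated 1. The lamellar body lipid transporter Abca3 overlapped, at 0 and 72.3 CPM against 108 and 58.0 CPM, as did the lineage factor Nkx2-1, at 38 and 120.0 CPM against 3.0 and 290.0 CPM. Nkx2-1 thus differed more between the treated replicates than between the groups. Lpcat1, Muc1, Ctsh and Chil1 were chosen from the list after their values were seen.

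**Figure D3:**
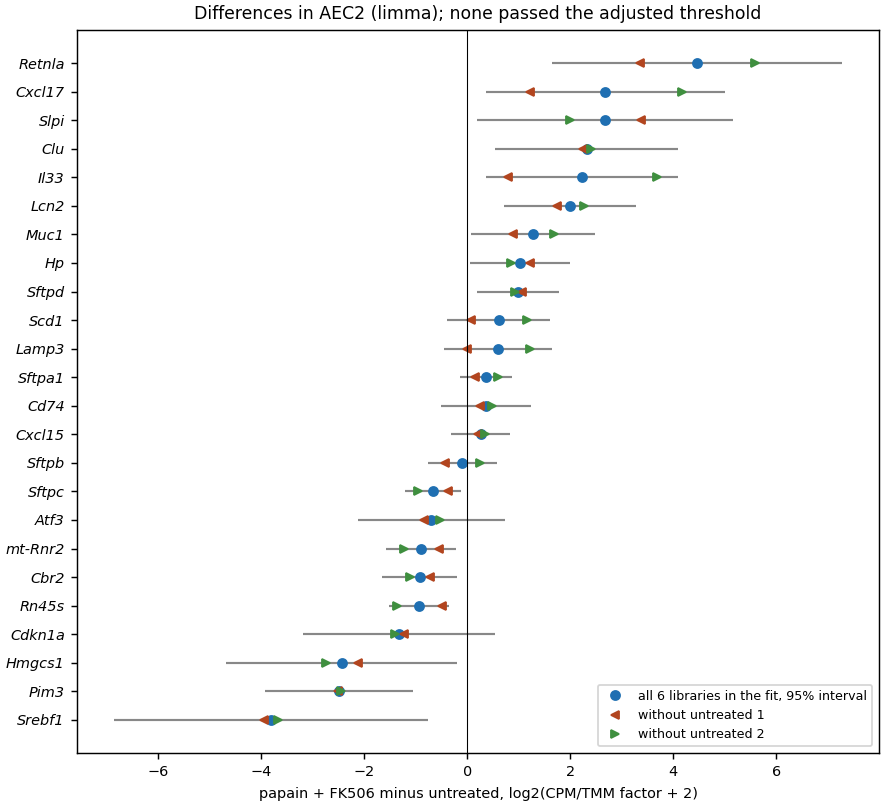
Points give the log2 difference between papain + FK506 and untreated AEC2 with its 95% interval from limma for 24 genes, and triangles the same difference without 1 untreated library. Among the intervals that lie apart from 0 before adjustment are those of Retnla (1.65 to 7.28) and Pim3 (-3.93 to -1.05). Those of Lcn2 (0.705 to 3.281), Sftpd (0.192 to 1.776), Sftpc (-1.215 to -0.121) and Rn45s (-1.52 to -0.365) do so too. No gene passed after adjustment, and Il33 and Cxcl17 shift most between the 2 triangles.

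Genes of AEC1 and of the state between the 2 cell types gave no common direction. Of 14 tested AEC1 markers, 4 had both treated libraries above and 2 both below. Of the 4, Hopx, a homeodomain protein gene, passed the filter through the treated libraries alone, at 15.0 and 50.5 CPM there and at 0 in the other 4. Ager, the most abundant, overlapped at 1384 and 3102 CPM against 2399.6 and 3506 CPM. Cldn18, a tight junction protein, was at 396 and 499 CPM against 1405 and 665 CPM, and the water channel Aqp5 at 152 and 225 CPM against 426 and 329.8 CPM. Of 14 tested genes of the transitional state, 3 lay above and 3 below. Clu, a secreted chaperone of injured epithelium, was at 59 and 68.5 CPM untreated and at 479 and 288 CPM treated, a difference of 2.32 ± 0.80 that was 2.41 without untreated 2 and 2.24 without untreated 1. The keratins Krt8, at 87 and 282 CPM against 186 and 175 CPM, and Krt18, at 177 and 188 CPM against 229.0 and 229 CPM, differed by 0.01 ± 0.76 and 0.13 ± 0.75. Without untreated 2 these differences were 0.83 and 0.16, and without untreated 1 they were -0.80 and 0.12. Cdkn1a, a cell cycle inhibitor, was at 184 and 167 CPM against 55.4 and 112 CPM, and the calcium-dependent membrane protein Anxa2 at 408 and 496 CPM against 296 and 256 CPM. Hopx, Cldn18, Aqp5, Clu and Anxa2 were chosen after their values were seen.

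Genes of the drug's own target pathway mostly overlapped between the groups, and some were listed at or near 0. Fkbp1a, which encodes the FK506-binding immunophilin, was at 64 and 178 CPM untreated and at 243 and 128 CPM treated, a difference of 0.52 ± 0.83 that was 1.23 without untreated 2 and -0.18 without untreated 1. The calcineurin catalytic subunit Ppp3ca was at 225 and 94.6 CPM against 161 and 80.4 CPM, Ppp3cb was at 0 throughout, and the regulatory subunit Ppp3r1 was at 121 and 232 CPM against 249 and 235 CPM. NFAT induces Rcan1, a feedback inhibitor of calcineurin, which was at 0 and 44.6 CPM against 0 and 82.0 CPM. Nfatc3 was at 38 and 66.2 CPM against 97.3 and 0.8 CPM, and Nfatc1 at 34 and 42.3 CPM against 0 and 59.7 CPM. For Rcan1, Nfatc1 and Nfatc3 the treated replicates disagreed with each other by more than the groups did.

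Of 14 tested genes in the calcineurin list, 3 had both treated libraries above and 2 both below, near the background shares. Calm3, which encodes calmodulin, the calcium sensor that activates calcineurin, was among those above, at 118 and 108 CPM against 274 and 471 CPM. Of 9 tested genes in the list of FK506-binding proteins and related genes, 3 lay above and 0 below. One of the 3 encodes a kinase and no immunophilin, and the others were Fkbp2, a binding protein of the endoplasmic reticulum, at 66 and 238 CPM against 308 and 438 CPM, and Ppia, the cyclosporin-binding cyclophilin A, at 13 and 11.5 CPM against 48.6 and 43.1 CPM. Fkbp4, a co-chaperone of steroid receptors, overlapped at 290 and 265 CPM against 251 and 429 CPM, and Fkbp5 was listed above 0 in 1 treated library only, at 28.4 CPM. Calm3, Fkbp2 and Ppia were chosen after their values were seen.

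AEC2 synthesize the lipids of surfactant, and genes of cholesterol and fatty acid synthesis did not share a direction. Of 25 tested, 3 had both treated libraries above both untreated ones and 3 both below, and the median of 0.21 was -0.75 without untreated 1. Scd1, the stearoyl-CoA desaturase, was at 1806 and 3912 CPM against 5093 and 4218 CPM, and its groups overlapped after TMM scaling. Srebf1, a transcription factor of lipogenic genes, was at 145 and 179 CPM against 0.7 and 61.3 CPM, a difference of -3.81 ± 1.38 (limma adjusted p = 0.904) that was -3.68 without untreated 2 and -3.94 without untreated 1. Hmgcs1, an early enzyme of the sterol pathway chosen after its values were seen, was at 295 and 196 CPM against 132 and 17.4 CPM. The fatty acid synthase gene Fasn overlapped between the groups, at 13 and 136 CPM against 258 and 88.7 CPM.

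Immediate early genes also respond to the handling of cells. Both treated libraries lay below both untreated ones for 7 of 22 tested members (31.8%, against 11% of all genes) and above for 0. The median of -0.44 was -0.16 without untreated 2 and -0.97 without untreated 1. Without untreated 2 the TMM-scale counts were 5 above and 7 below, where 36.5% and 27.9% of all genes lay above and below. Without untreated 1 they were 1 and 18, where the shares of all genes were 24.7% and 43.6%. Atf3 was at 383 and 489 CPM against 329 and 281 CPM, and Junb at 1048 and 1831 CPM against 970.0 and 641 CPM. Ppp1r15a, a phosphatase subunit of the integrated stress response, was at 330 and 276 CPM against 153 and 56.3 CPM. Fos, at 429 and 853 CPM against 545 and 341 CPM, Jun, at 1355 and 2156 CPM against 2010 and 1030 CPM, and Egr1, at 576 and 657 CPM against 1131 and 560.1 CPM, overlapped. In each of these 3 the treated replicate 1 was the higher one. Junb and Ppp1r15a were chosen after their values were seen.

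Chaperone and redox genes more often had both treated libraries above both untreated ones than the 18.9% of all genes, a difference in share that was not tested. In the heat shock list the count was 7 of 17 above and 3 below, in the unfolded protein list 6 of 19 above and 1 below, and among NRF2 and redox genes 9 of 21 above and 3 below. For heat shock (17.6%) and redox genes (14.3%) the share below was also larger than the 11% of all genes. On the TMM scale the unfolded protein count was 6 above and 2 below, and the heat shock and redox counts were 6 and 4 and 8 and 4. With median-of-ratios factors, another scaling of the libraries, the heat shock count was 4 above and 4 below. The median differences of the heat shock, unfolded protein and redox lists were 0.23, 0.26 and 0.24. Hspa1a and Hspa1b, near-identical copies whose reads may be split between them, had 131 and 62.3 CPM against 192 and 169 CPM, and 25 and 108 CPM against 165 and 111 CPM. The endoplasmic chaperone Hspa5 was at 436 and 775 CPM against 1123 and 925 CPM, and the ferritin heavy chain Fth1 at 852 and 1357 CPM against 1983 and 2840 CPM, a difference of 0.95 ± 0.42 that was 1.27 without untreated 2 and 0.64 without untreated 1. Hspa5 and Fth1 were chosen after their values were seen.

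Proliferation genes were listed mainly in the treated libraries and in papain replicate 1. Of 26 members 17 were tested, and 13 of those had both treated libraries above both untreated ones, with 0 below. These counts are not support for a change, since 3 of the 13 passed the filter through the treated libraries alone and several others were at 0 in both untreated ones. The summed value of the list was 502 and 798 CPM untreated, 2284 and 1958 CPM with papain + FK506, and 1309 and 773 CPM with papain. Cyclin D1 (Ccnd1), which drives entry into S phase, was at 274 and 509 CPM against 674 and 686 CPM. Birc5, a mitotic survivin, was at 0 in both untreated libraries and at 229.8 and 129 CPM in the treated ones. The mitotic kinase gene Cdk1 was likewise at 0 untreated, at 242 and 109 CPM with papain + FK506 and at 279 and 0 CPM with papain. Mki67, a marker of dividing cells, was at 13 and 0 CPM against 49.4 and 49.7 CPM. A larger share of dividing AEC2 and more of these RNAs per cell cannot be told apart in bulk samples. Ccnd1, Birc5, Cdk1 and Mki67 were chosen after their values were seen.

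Mitochondrially encoded RNA was lower in both treated libraries than in both untreated ones for all 9 tested members of that list. The differences ran from -0.94 to -0.49, none passed, and the median was -0.63 without untreated 2 and -0.58 without untreated 1. The mitochondrial 16S ribosomal RNA (mt-Rnr2) was at 35746 and 22907 CPM untreated and at 20009 and 15418 CPM treated, and ND1, a complex I subunit, at 13824 and 10295 CPM against 8796 and 8416 CPM. COX1, a complex IV subunit, was at 3594 and 2525 CPM against 2415 and 1347 CPM. Apart from ND6, which is read from the other strand, these transcripts are cut from a common precursor RNA, so the 9 are not independent. Without any TMM factor the median was -0.47.

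Nuclear genes of oxidative phosphorylation lay the other way, with 18 of 35 tested members above and 3 below, or 14 and 4 on the TMM scale, and a median of 0.54 that was 0.33 without untreated 1 and 0.32 without untreated 2. Cox7c, a complex IV subunit, was at 16 and 603 CPM against 1115 and 963 CPM, and Ndufc1, a complex I subunit, at 0 and 135 CPM against 686 and 399 CPM. For both genes untreated 1 was far below untreated 2. COX1, ND1, mt-Rnr2, Cox7c and Ndufc1 were chosen after their values were seen. Ribosomal RNA moved with these groups. Rn45s and Rn18s together made up 26.1% and 14.4% of the summed CPM in the untreated libraries and 11.8% in each treated one, and mitochondrial protein-coding RNA made up 7.77% and 8.31% against 6.03% and 5.79%. The part of this difference in the other results was not tested, beyond a fit without these RNAs, which called 0 genes.

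**Figure D4:**
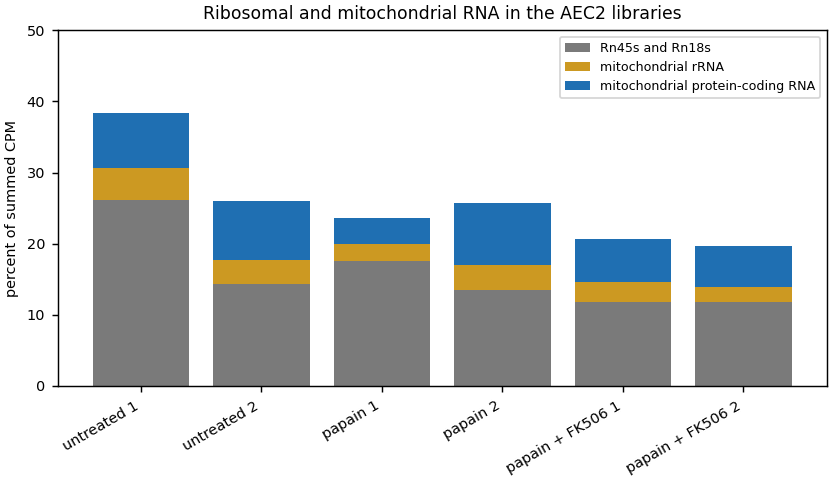
Stacked bars give the percent of the summed CPM held by nuclear ribosomal RNA, mitochondrial ribosomal RNA and mitochondrial protein-coding RNA in each AEC2 library. Untreated 1 holds the largest ribosomal share (26.1%), and both papain + FK506 libraries hold the smallest (11.8%).

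None of the antigen presentation genes passed. Of 6 tested in the class II list, 1 lay above and 1 below. The class II genes H2-Aa, at 2233 and 1204 CPM against 2001 and 1516 CPM, and H2-Ab1, at 1028 and 447 CPM against 584 and 799.6 CPM, overlapped and differed by -0.11 ± 0.46 and -0.18 ± 0.55. Without untreated 2 these differences were -0.57 and -0.80, and without untreated 1 they were 0.36 and 0.44. The invariant chain gene Cd74 was at 892 and 1080 CPM against 1459 and 1424 CPM. In the class I list 1 of 9 tested members lay above and 3 below on the deposited scale, and 1 and 5 on the TMM scale, where 12.9% of all genes lay below. Those below included the peptide-loading chaperone Tapbp at 139 and 272 CPM against 21.7 and 83.7 CPM. Of 11 tested interferon response genes 2 lay above and 2 below, or 1 and 2 on the TMM scale, and Irf1, an interferon-induced transcription factor, was at 592 and 776 CPM against 365 and 159.9 CPM. Tapbp and Irf1 were chosen after their values were seen.

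The 10 genes with the smallest p (limma, unadjusted, from 0.00298 to 0.00793) comprised 7 with lower and 3 with higher values, and none passed (limma adjusted p = 0.904 for each). Pim3, a serine/threonine kinase of growth signalling, was at 1107 and 1183 CPM untreated and at 198 and 269 CPM treated, a difference of -2.49 ± 0.65 that was -2.46 without untreated 2 and -2.51 without untreated 1. Papain alone gave 327 and 1253 CPM. Rn45s, the ribosomal RNA precursor, was at 191660 and 107619 CPM against 85330 and 85874 CPM. Tpp1, a lysosomal peptidase, was at 31 and 55.4 CPM against 355 and 379.5 CPM, and Retnla and Lcn2 were the other 2 with higher values.

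The remaining 5 of the 10 were at or near 0 in both treated libraries. The Wnt receptor gene Fzd5 was at 161 and 79.3 CPM untreated and at 0 and 0.8 CPM treated, and the lipoprotein receptor gene Scarb1 at 128 and 100 CPM against 0 in both. Pex14, of the peroxisomal import machinery, was at 184 and 129 CPM against 0 and 1.7 CPM. Lrpprc, which stabilizes mitochondrial RNA, was at 131 and 135 CPM against 0 and 4.1 CPM, and the ubiquitin ligase gene Rnf11 at 284 and 90.8 CPM against 4.5 and 0 CPM. Over all genes tested, 810 were at 0 in both treated libraries and 398 in both untreated ones.

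**Figure D5:**
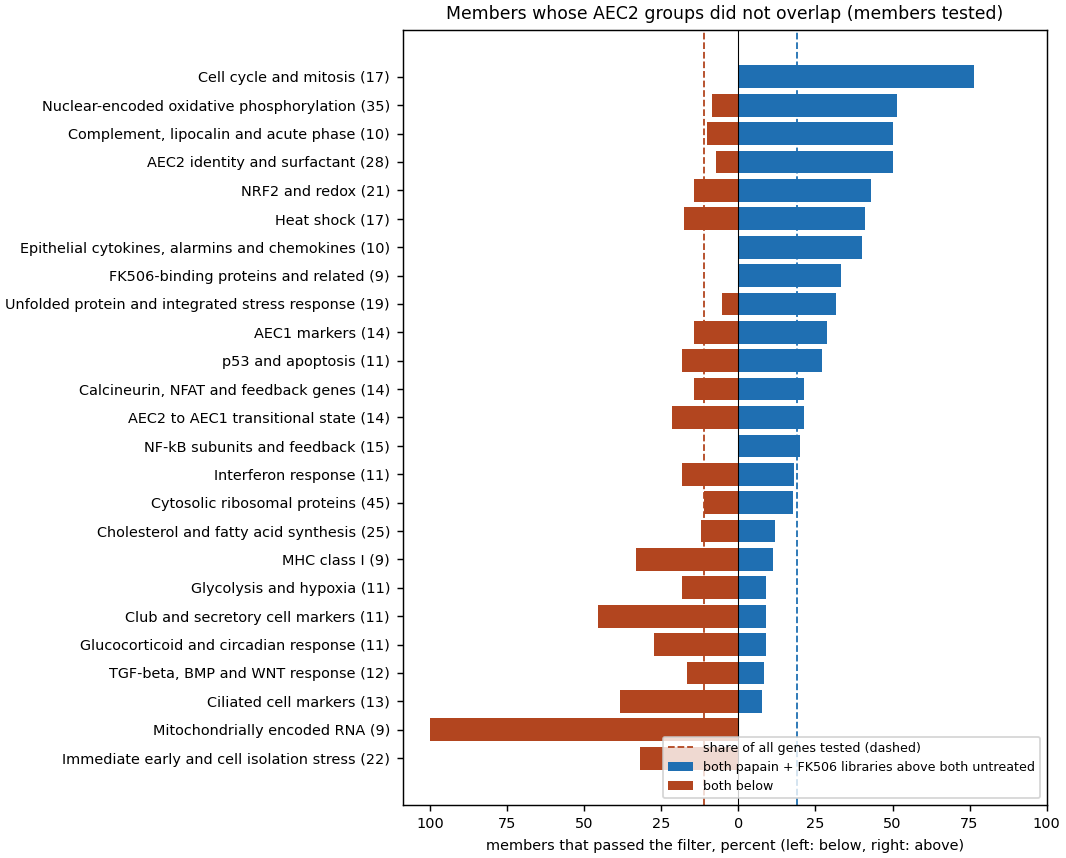
Bars give, for each gene list with at least 9 tested members, the percent of those members with both papain + FK506 libraries above (right) or below (left) both untreated ones, on the deposited CPM scale. Dashed lines mark the shares of all genes tested, 18.9% above and 11% below. Mitochondrially encoded RNA (9 of 9 below) and the cell cycle list (13 of 17 above) reach furthest, the latter with members that passed the filter only through treated libraries.

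Markers of other lung cells were checked in the same way. Club cell genes were abundant: Scgb1a1 was at 1920 and 18499 CPM untreated, 2362 and 19333 CPM with papain and 9425 and 9924 CPM with papain + FK506, and the summed club cell list ran from 10447 to 32609 CPM over the 6 libraries. Of its 11 tested members 5 lay below and 1 above, among them Cbr2, a carbonyl reductase, at 12776 and 9950.1 CPM against 7212 and 6393 CPM. Ciliated cell genes were present too, with Foxj1 at 450 and 516 CPM untreated and at 674 and 406 CPM treated, and 5 of 13 tested members below and 1 above. Hp belongs to both the club cell and the acute phase list, and the part of club cells in its value was not tested. The defining markers Col1a1, Pecam1, Csf1r, S100a8, Cd3e and Ptprc of fibroblasts, endothelium, macrophages, neutrophils, T cells and leukocytes were at 0 or at most 1.7 CPM in every library. Other members of those lists were listed. The summed fibroblast and smooth muscle list ran from 397 to 1003 CPM over the 6 libraries, mostly Gsn and Sparc, with 12 of 20 members at 0 in all. The endothelial list ran from 201 to 399 CPM, from Epas1 and Egfl7 in the main, with 15 of 18 members at 0 in all. The macrophage, monocyte and dendritic cell list ran from 1595 to 5017 CPM, with 16 of 24 at 0, and the lymphocyte list from 0.8 to 51.0 CPM, with 21 of 25 at 0. Their part in the other results was not tested. Lcn2 was thus the only neutrophil-list gene tested, in libraries in which S100a8 was listed at 0, and Hdc was the only tested gene of the eosinophil, mast cell and basophil list. Lyz1 made up most of the macrophage list, at 3173 and 1597 CPM against 1621 and 1737 CPM. The epithelial gene Epcam was at 50 and 101 CPM untreated and at 36.7 and 93.6 CPM treated. Cbr2, Scgb1a1, Lyz1, Gsn, Sparc, Epas1 and Egfl7 were chosen after their values were seen.

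The same contrast in the libraries labelled AEC1, 2 a group, was set beside the AEC2 difference. Markers of AEC1 did not all follow that label. Ager ran from 37.1 to 114 CPM in the 6 libraries labelled AEC1 and from 1384 to 3506 CPM in the 6 labelled AEC2, Aqp5 from 0 to 74.8 CPM against 152 to 426 CPM, and Hopx was at most 3.2 CPM in AEC1. Pdpn, which encodes podoplanin, did follow it, at 98.8 to 433 CPM in AEC1 and at 0 in all AEC2 libraries, as did the caveolin gene Cav1, at 38.9 to 570.4 CPM against 0 to 33.1 CPM. Of the 20 AEC1 markers, 3 were higher in every library labelled AEC1 than in any AEC2 library, 4 were lower and 13 overlapped. Of 9841 genes, 0 differed between AEC2 and AEC1 in a limma interaction term (0%), with 776 at an unadjusted p under 0.05 and a smallest adjusted p of 0.350, that of Npc2, a lysosomal cholesterol carrier. Npc2 was at 5987 and 8958 CPM untreated and at 13563 and 14423 CPM treated in AEC2, and at 1222 and 1493 CPM against 357 and 414 CPM in AEC1. Il33, which was higher in treated AEC2, was at 146 and 17.3 CPM in untreated AEC1 and at 3.5 and 0 CPM in treated AEC1, a difference between the populations of 6.31 ± 2.42 (limma adjusted p = 0.559). Clu differed between them by 4.12 ± 0.99 and Slpi by 4.26 ± 1.49, with adjusted p of 0.506 and 0.532 in limma. Lcn2 was at 0 in both untreated AEC1 libraries and at 167 and 145 CPM in the treated ones, and Retnla was at 1.1 and 0 CPM against 7.0 and 75.5 CPM. Treated values of Lcn2 and Retnla were above untreated ones in both populations. For Lcn2 the difference between the populations was -4.13 ± 1.18 (limma adjusted p = 0.506), opposite in sign to those of Il33, Clu and Slpi. Its treated minus untreated difference was 6.12 in AEC1 and 1.99 in AEC2. For Retnla the difference between the populations was 1.2 ± 2.2 (limma adjusted p = 0.933). Npc2, Pdpn and Cav1 were chosen after its values were seen.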

How the data were processed

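Per the labels, cells sorted from mouse lung were sequenced with a Lexogen QuantSeq 3' end kit on a HiSeq1500. STAR 2.7.0c and featureCounts 1.6.0 and the builds mm10 and GRCm38.p6 stand in the submitters' processing notes, while strand setting and the handling of multiply matching reads are not given in the sources used here. The authors deposited CPM per gene for each library. AEC2 untreated replicate 1 is an exception: its deposited values are whole numbers on that scale and were treated as a score, that is, rounded CPM. Rows that name no gene (4 per file) were left out. Reads were recovered from the step of the low CPM values, all of which came out whole within 0.1 read in the other 5 AEC2 libraries.

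Genes at 10 CPM or more in at least 2 AEC2 libraries were tested with limma 3.58.1 (empirical Bayes with a variance trend, R 4.3.3) on log2(CPM / TMM factor + 2), with TMM factors from edgeR 4.0.16. The pseudocount understates changes of low genes. All 6 AEC2 libraries shared 1 spread estimate, and the interaction used 12 AEC libraries. Tests were two-sided with Benjamini-Hochberg adjustment over all genes. On simulated data the fit recovered nearly all changed genes when libraries varied little and none when they varied widely, so 0 calls do not show that no gene differed. Alternatives were other pseudocounts, filters, scalings and variance models, rounding, a replicate block, left-out libraries, and edgeR and DESeq2 1.42.0 on recovered reads.

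Named genes were 48 fixed genes (the other two are not reported here), the 10 with the smallest p because fewer than 10 passed, and others marked as chosen after their values were seen. A total of 36 gene lists was used. The genes and lists were chosen with earlier results of these data known. Titles number the replicates, and the deviations of same-numbered untreated and papain + FK506 libraries correlated at -0.01. The correlation was 0.45 for untreated and papain, the groups that hold the near copies, and -0.01 for papain and papain + FK506. The untreated deviations rest in part on a library whose label is in doubt, so these values cannot decide whether the numbers pair the libraries. Pairing is therefore unknown.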

Additional observations from a re-analysis of the deposited data

How the results depend on the processing

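The limma count of 0 genes higher and 0 lower held under pseudocounts of 0.5 and 10, with no filter or a filter at 50 CPM, under the other scalings, after rounding, without a variance trend, with only the 4 libraries compared, without papain 2, without both near copies and with edgeR; the smallest adjusted p over these alternatives was 0.150. A robust variance model called 3 genes higher (Lcn2, Sftpd and Ndufc1) and 5 lower (Pim3, Rn45s, Rn18s, mt-Rnr2 and Sftpc), and 2 in the interaction (Npc2 and Lamp3). DESeq2 on recovered reads without untreated 1 called 3 higher and 16 lower, most of the latter at 0 in both treated libraries. Leaving out 1 library gave 0 to 2 genes higher and 0 to 3 lower. Retnla was the gene called without papain + FK506 replicate 1, and Retnla, Ndufc1, Srf, Eif4a3 and Srebf1 were called without replicate 2. A lone library has no spread of its own, and the fit then takes it from the other groups and the variance trend over all genes. For Retnla those groups were themselves wide, at 42 and 210.1 CPM untreated and at 7876 and 223 CPM with papain. These calls are not read as results, and the cause of the changes was not tested. The fit with a replicate block called 0 in each direction and in the interaction (366 and 810 genes under an unadjusted 0.05). The fits without papain 2, without both near copies and without ribosomal and mitochondrial RNA were chosen after seeing the data.

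Of 81 named genes tested, 61 kept their sign under every alternative, and 20 did not. With 1 library left out, the log2 difference ranged from -0.43 to 0.26 for Sftpb, from -0.036 to 5.29 for Abca3, from -0.006 to 1.22 for Lamp3, from -3.94 to 1.89 for Nkx2-1, from -1.43 to 0.081 for Areg, from -2.30 to 3.02 for Rcan1, from -1.18 to 0.098 for Ppp3ca, from -0.11 to 0.78 for Ppp3r1, from -4.34 to 0.77 for Nfatc3, from -4.41 to 0.46 for Nfatc1 and from -0.18 to 1.23 for Fkbp1a. It ranged from -0.30 to 0.45 for Fkbp4, from -0.26 to 0.86 for Ager, from -0.80 to 0.83 for Krt8, from -0.57 to 0.36 for H2-Aa, from -0.80 to 0.44 for H2-Ab1, from -0.91 to 0.072 for Jun, from -0.31 to 0.72 for Egr1, from -0.015 to 3.16 for Fasn and from -1.10 to 2.12 for Scgb1a1.

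Without untreated 1, edgeR and DESeq2 on recovered reads turned the sign of Nkx2-1 (0.15 and 0.083), Areg (0.16 and 0.11), Rcan1 (-0.26 and -0.33), Ppp3ca (0.23 and 0.20), Ppp3r1 (-0.065 and -0.10), Fkbp1a (-0.063 and -0.092), Ager (-0.20 and -0.24), Krt8 (-0.77 and -0.80), H2-Aa (0.42 and 0.39), H2-Ab1 (0.50 and 0.46) and Scgb1a1 (-1.06 and -1.10), and DESeq2 that of Lamp3 (-0.002). Without TMM factors Sftpb was 0.099, H2-Aa 0.087 and H2-Ab1 0.011. With both near copies left out Sftpb was 0.16 and Fkbp4 -0.13. Fkbp4 and Krt8 were -0.017 and -0.057 at the 50 CPM filter and -0.029 and -0.069 with median-of-ratios factors, and Krt8 was -0.004 with a pseudocount of 10 and -0.034 without ribosomal and mitochondrial RNA. The number of libraries and the many genes listed at 0 in 1 replicate, at about 1 CPM per read, limit what these data can show.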

Other observations

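Lysosomal genes were not among the lists. Npc2 and Tpp1, both lysosomal, were each higher in both papain + FK506 AEC2 libraries than in both untreated ones, at 13563 and 14423 CPM against 5987 and 8958 CPM for Npc2 and at 355 and 379.5 CPM against 31 and 55.4 CPM for Tpp1. In the libraries labelled AEC1 the 2 treated libraries were below the untreated ones for Npc2, at 357 and 414 CPM against 1222 and 1493 CPM. Neither gene passed the limma test in AEC2, and both were picked for description after their values were seen.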
